A study of Homo sapiens with 18 samples.

Results

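The response to androgen was followed in LNCaP prostate cancer cells whose FOXA1 had been depleted, or depleted and replaced by a forkhead mutant. The members are 5 constructs, each with 1 array after R1881 and 1 after ethanol, which makes 10 of the 18 arrays of the series. All 5 carried a short hairpin against FOXA1. One expressed GFP in place of FOXA1, and the others expressed the mutants D226N, M253K, F266S or FENG, a name that the labels do not define and that is used here as given. Residues 226, 253 and 266 lie in the forkhead domain. R1881 is a synthetic androgen, given at 1 nM for 24 hours, with ethanol as the vehicle, to cells kept beforehand for 3 days in medium containing 5% charcoal-stripped serum. The 4 other constructs supplied the values set beside them: hairpin cells with wild-type FOXA1, G87R or L388M, and cells with GFP and the control vector pGIPZ, which carries no hairpin against FOXA1. Every condition had 1 array, and the labels do not state how many cultures were grown. The p-values below therefore measure the spread of the response between constructs, which may be technical.

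Androgen acts through a nuclear hormone receptor, which occupies DNA at palindromic response elements made of a pair of short motifs. FOXA1 is a pioneer factor that binds closed chromatin through its winged-helix forkhead domain and opens many enhancers to the receptor in prostate luminal cells. LNCaP cells respond to androgen and are widely used to study this response.

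Signal was read on Illumina HT-12 V4 bead arrays, background corrected, quantile normalised and put on the log2 scale, so a difference of 1 is a factor of 2. A gene was represented by its brightest detected probe, which left 11590 genes. The response is the R1881 value minus the ethanol value of the same construct. Detected probes numbered 15855 to 17264 over the 10 arrays and 15922 to 17278 over the 8 others. The probe for FOXA1 read 10.74 to 11.07 with R1881 and 10.76 to 11.16 with ethanol in the 5 constructs. In control-vector cells it read 11.73 with R1881 and 11.93 with ethanol, and in the other 3 constructs 10.61 to 10.72 with R1881 and 10.86 to 10.96 with ethanol. Whether this probe reads the inserted copies is unknown, so it checks the hairpin only in the GFP line (11.07 with R1881 and 11.16 with ethanol). Of 11 luminal markers 9 had a kept probe and 7 were detected on all 10 arrays, among them CDH1, EPCAM and HOXB13. None of 6 neuroendocrine, 1 of 6 basal and 1 of 7 leukocyte markers had a kept probe. NR3C1, the glucocorticoid receptor, was not analysed here.

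Of the 5 constructs, 2 deviated from the rest. The responses of GFP, D226N and F266S correlated over genes at 0.48 to 0.53 with each other. M253K correlated with those 3 at 0.14 to 0.32 and FENG at 0.28 to 0.41, and M253K and FENG correlated at -0.44 with each other. The spread of the response over all genes was 0.59 (SD) in M253K and 0.44 in FENG, against 0.30 to 0.36 in the other 3. The M253K ethanol array and the FENG R1881 array had the fewest detected probes of the 10 (15855 and 16077). The G87R response, among the 4 other constructs, correlated at 0.61 with M253K and at -0.13 with FENG. Counts are therefore also given without the M253K and FENG constructs (and without G87R in comparisons with the others), and without only the M253K ethanol and FENG R1881 arrays, a fit that takes construct as a random block throughout.

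**Figure D1:**
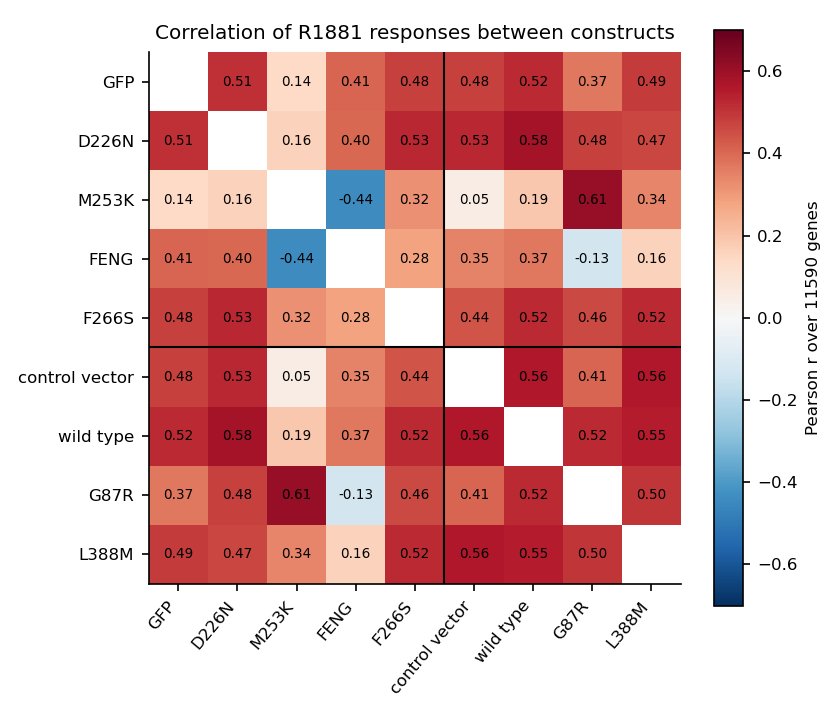
Pearson correlation, over 11590 genes, of the R1881 minus ethanol response between each pair of constructs, with the 5 depleted or forkhead-mutant constructs first and the 4 others after the black lines. M253K and FENG stand apart from the rest, with -0.44 between them, and M253K is closest to G87R (0.61); genes share arrays and are not independent, so no p is given.

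R1881 still moved a broad set of genes in these cells. In the fit with construct as a block, 167 genes rose (1.44% of all tested) and 135 fell (1.16%) at a limma Benjamini-Hochberg adjusted p under 0.05, and 1495 genes had an unadjusted p under 0.05. All but 1 of the 302 called genes had the same sign in 5 of 5 constructs, as had 14.5% of all genes. Choosing genes by this fit favours such agreement, so it is no separate evidence. At least a 1.5-fold change was seen for 144 of the genes that rose and 103 of those that fell, and at least a 2-fold change for 54 and 26. Without the M253K and FENG constructs 590 genes were called, 290 of them shared with the 302, and without the 2 deviating arrays 662. Dropping D226N or F266S gave 81 or 73 calls and dropping M253K gave 615, so the count depends heavily on which constructs enter. In these bulk extracts a change in RNA per cell and a change in the share of cells that hold the RNA cannot be told apart.

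FKBP5, a co-chaperone of HSP90 that binds steroid receptors, gave the response with the smallest spread of the large ones. Its signal with R1881 was 11.14, 10.82, 10.69, 10.93 and 10.73 in GFP, D226N, M253K, FENG and F266S cells, against 8.52, 8.09, 7.97, 8.45 and 8.13 with ethanol. The groups were far apart, and the response was 6.19-fold (2.63 ± 0.09 SE, limma adjusted p = 2.53e-05, n = 5 constructs). In the 4 other constructs FKBP5 responded by 3.22 ± 0.10 (SE). All 5 responses (2.48 to 2.73) lay below all 4 others (2.92 to 3.35), but the difference did not pass (-0.59 ± 0.13, limma adjusted p = 0.401).

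**Figure D2:**
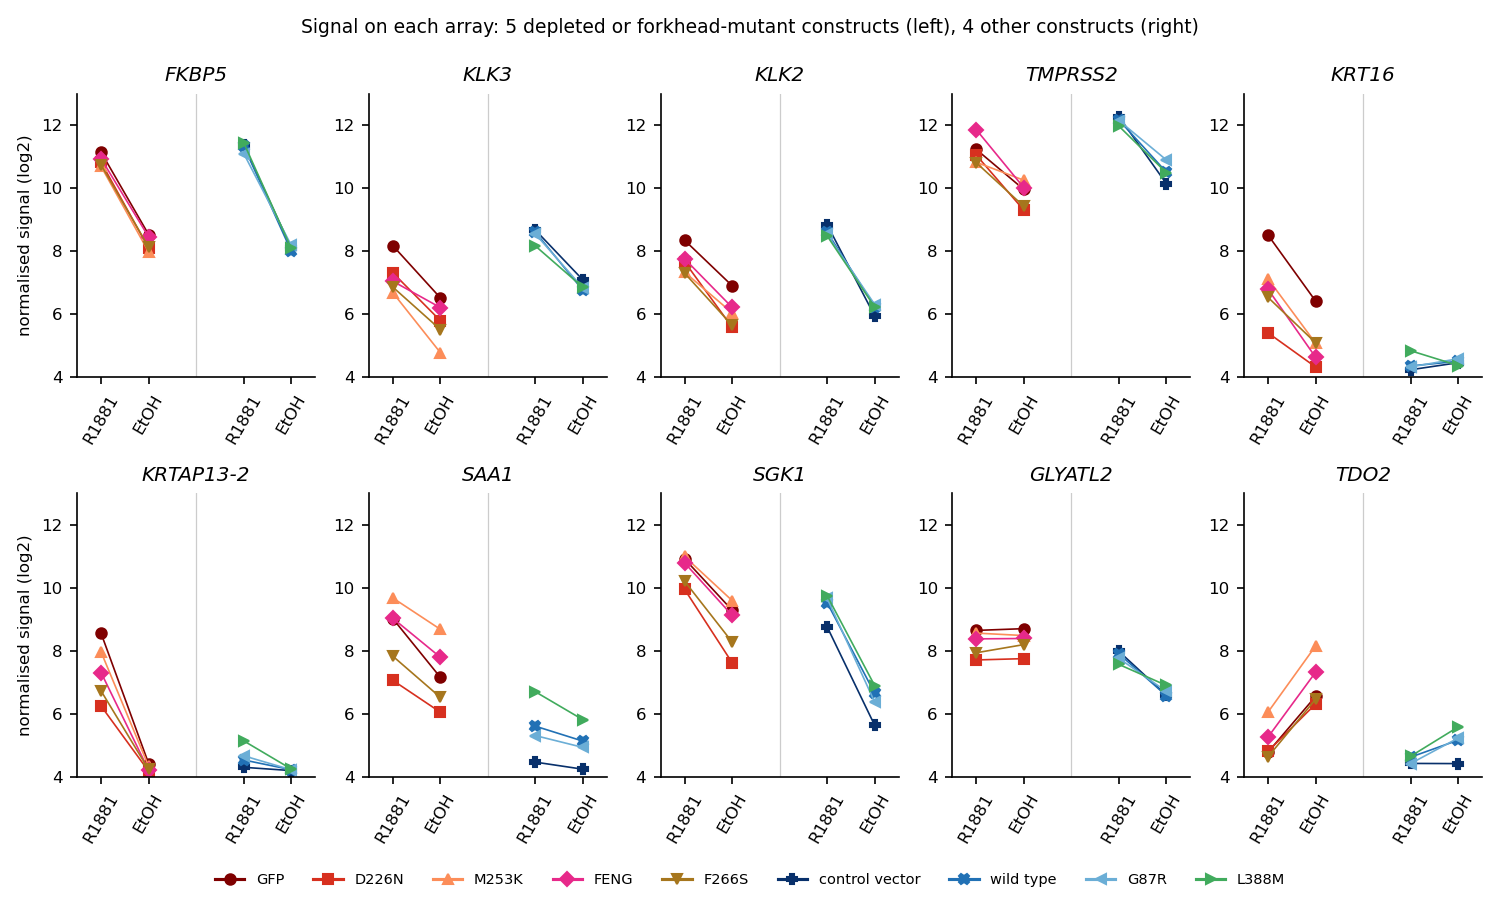
Normalised log2 signal of 10 genes on each array, with R1881 left of ethanol (EtOH) and a line for each construct; the 5 depleted or forkhead-mutant constructs stand on the left of each panel and the 4 others on the right. FKBP5, KLK3, KLK2 and TMPRSS2 were higher with R1881 in 9 of 9 constructs, whereas KRT16 and KRTAP13-2 read at most 5.14 on any array of the 4 other constructs.

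Of 5 measured kallikreins, a family of secreted proteases, 3 rose (KLK2, KLK3 and KLK4), and so did the surface protease TMPRSS2. KLK15 (0.03) and KLK11 (-0.20) did not pass (limma adjusted p = 0.968 and 0.466). KLK3, which encodes prostate-specific antigen, read 8.17, 7.31, 6.68, 7.04 and 6.86 with R1881 in GFP, D226N, M253K, FENG and F266S cells, against 6.51, 5.79, 4.78, 6.21 and 5.51 with ethanol. Each construct rose, by 0.84 (FENG) to 1.90 (M253K), with a mean of 1.45 ± 0.15 (SE, limma adjusted p = 0.0027), and the lowest R1881 level lay just above the highest ethanol level. Its paralogue KLK2 read 8.34, 7.66, 7.33, 7.75 and 7.30 with R1881 and 6.90, 5.58, 6.04, 6.21 and 5.64 with ethanol in the same constructs. The KLK2 groups did not overlap, and the response was 1.60 ± 0.13 (SE, limma adjusted p = 0.00101). KLK2 responses were 1.29 to 2.08 in the 5 constructs and 2.22 to 2.90 in the 4 others, a difference of -0.83 ± 0.19 that did not pass (limma adjusted p = 0.401). For KLK3 the responses overlapped (-0.16 ± 0.21, limma adjusted p = 1.00). What set KLK3 apart was its level: it read 6.68 to 8.17 with R1881 and 4.78 to 6.51 with ethanol in the 5 constructs, against 8.16 to 8.66 with R1881 and 6.75 to 7.08 with ethanol in the 4 others. TMPRSS2 read 11.23, 11.05, 10.82, 11.85 and 10.80 with R1881, against 9.95, 9.30, 10.25, 10.01 and 9.42 with ethanol, in GFP, D226N, M253K, FENG and F266S cells. Its response of 1.36 ± 0.18 (SE, limma adjusted p = 0.00837) was lowest in M253K (0.57) and lost its call without D226N or without F266S (adjusted p = 0.0587 and 0.0666).

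KLK3 and KLK2 lie next to each other on chromosome 19, and the 250 bases before their annotated starts are shown because the proximal KLK3 promoter is a textbook site of receptor binding. The sequences are from RefSeq (GRCh38.p14), 5′ to 3′ on the gene's strand, and capitals mark matches to 2 short motifs on either strand. The receptor motif was AGAACA, which is 1 arm of its palindromic element. The forkhead core motif searched for on both strands was GTAAACA, and the motifs overlap nowhere in these windows.
KLK3 (chr19:50854665-50854914, plus strand): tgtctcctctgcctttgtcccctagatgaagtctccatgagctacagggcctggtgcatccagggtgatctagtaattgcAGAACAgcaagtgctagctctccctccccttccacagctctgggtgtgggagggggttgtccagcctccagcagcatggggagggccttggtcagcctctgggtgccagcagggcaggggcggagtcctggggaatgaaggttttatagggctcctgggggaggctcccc
KLK2 (chr19:50873189-50873438, plus strand): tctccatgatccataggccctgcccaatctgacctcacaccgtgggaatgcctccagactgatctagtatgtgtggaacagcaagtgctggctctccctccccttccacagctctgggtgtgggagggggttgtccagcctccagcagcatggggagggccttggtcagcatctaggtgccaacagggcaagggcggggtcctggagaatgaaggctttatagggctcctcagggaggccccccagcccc
KLK3 held 1 receptor motif, starting 170 bases before the start of the gene, and no forkhead core. KLK2 held neither in these letters, although the windows share an unbroken run of 80 bases. Over 35116 promoter windows of 250 bases, 12.4% held the receptor motif and 2.98% the forkhead core. A match is a description of letters and not a bound site.

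Among 47 measured androgen-induced genes 30 rose and 0 fell in the 5 constructs, against 1.44% and 1.16% of all genes. The median response was 0.86, against -0.02 over all genes, and it lay between 0.81 (GFP) and 0.98 (D226N) in each construct taken alone. The transcription factors SNAI2 (2.56 ± 0.17), MAF (2.40 ± 0.19, with 0.79 at a second probe) and SPDEF (1.49 ± 0.18) rose, as did NDRG1 (1.78 ± 0.15), a stress-linked differentiation gene, and ODC1 (1.57 ± 0.10), the rate-limiting enzyme of polyamine synthesis. PMEPA1, an inhibitor of TGF-beta signalling, rose by 1.64 ± 0.13, the prostate transporter SLC45A3 by 1.41 ± 0.14, and NCAPD3, a condensin subunit, by 1.34 ± 0.25 (SE, limma adjusted p from 0.000451 to 0.0311 for these). Without the M253K and FENG constructs 33 of the 47 rose, and 33 without the 2 deviating arrays. Leaving out 1 construct at a time gave 16 to 36. Genes also used by the glucocorticoid receptor rose in 6 of 18 and fell in 0, with SGK1 (1.79 ± 0.14), a survival kinase, ERRFI1 (1.46 ± 0.15), a brake on EGFR, and ZBTB16 (1.33 ± 0.12), a zinc-finger repressor, next to FKBP5.

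**Figure D3:**
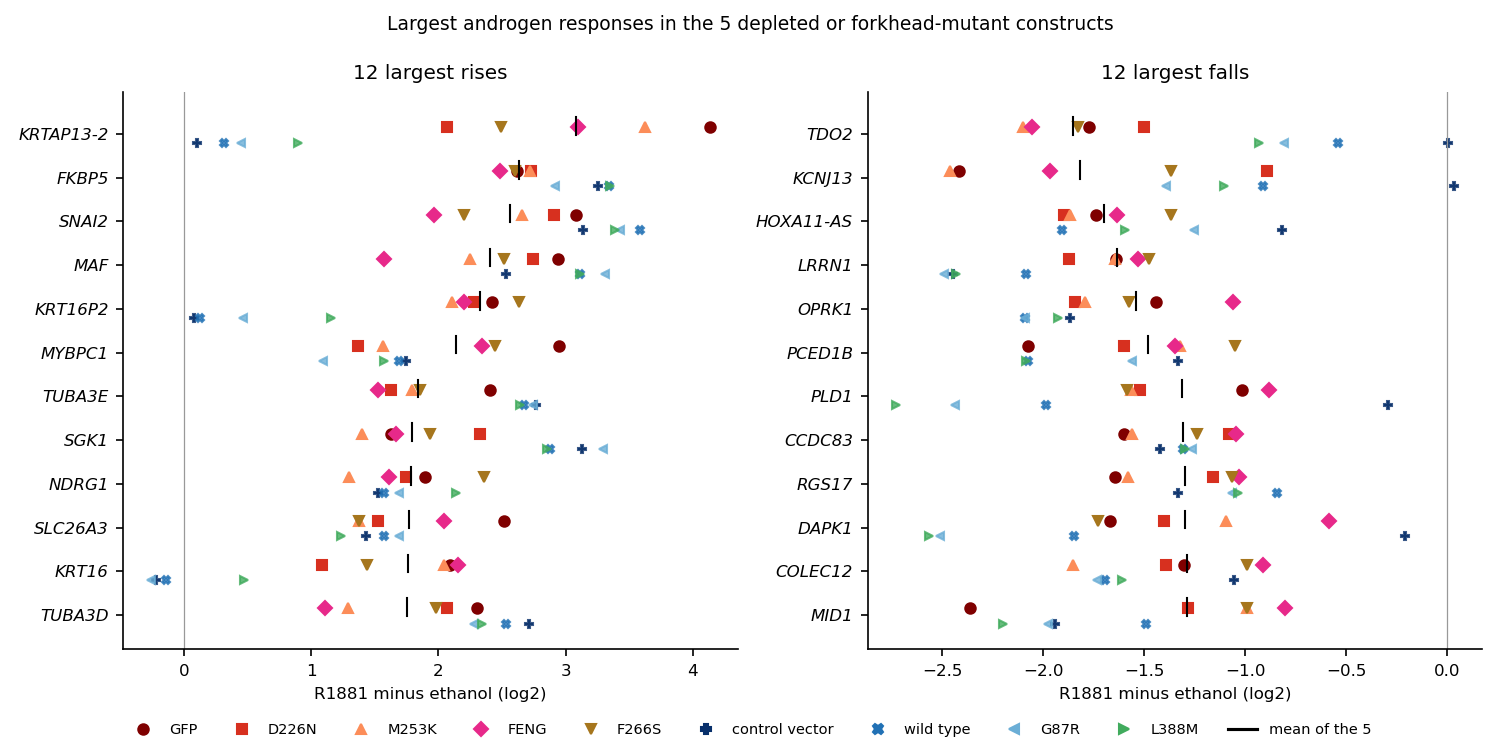
R1881 minus ethanol (log2) in each construct for the 12 genes that rose most and the 12 that fell most in the 5 depleted or forkhead-mutant constructs; upper symbols are these 5, lower symbols the 4 others, and the black bar is the mean of the 5. KRTAP13-2, KRT16P2 and KRT16 responded in the 5 and lay near 0 in most of the 4 others, while FKBP5, SGK1 and TUBA3E responded more in the 4 others.

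The median response of the androgen-induced genes was 0.86 in the 5 constructs and 1.20 in the 4 others. Of the 47, 36 had the lower mean in the 5 (5704 of all 11590 genes did), and 11 did not, among them NDRG1, ODC1 and AZGP1. In size, 59.2% of all genes had the smaller response in the 5. In the 4 others 40 of 47 rose, where 4.23% of all genes rose and 4.95% fell. For 16 of the 47, all 5 responses lay below all 4 others, against 1.42% of all genes, and for 0 did all 5 lie above, against 0.889%. With median scaling in place of quantile normalisation 7 of the 47 did not overlap in this way, and without M253K, FENG and G87R 19 did. No member of the list passed the test of the difference itself (limma adjusted p under 0.05), in which 0.0345% of all genes were called. Over all genes the mean responses of the 5 and of the 4 correlated at 0.74, and of the 302 genes called in the 5 constructs 244 were also called in the 4, all with the same sign. These 244 are 80.8% of the calls in the 5 and 22.9% of the 1064 calls in the 4.

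**Figure D4:**
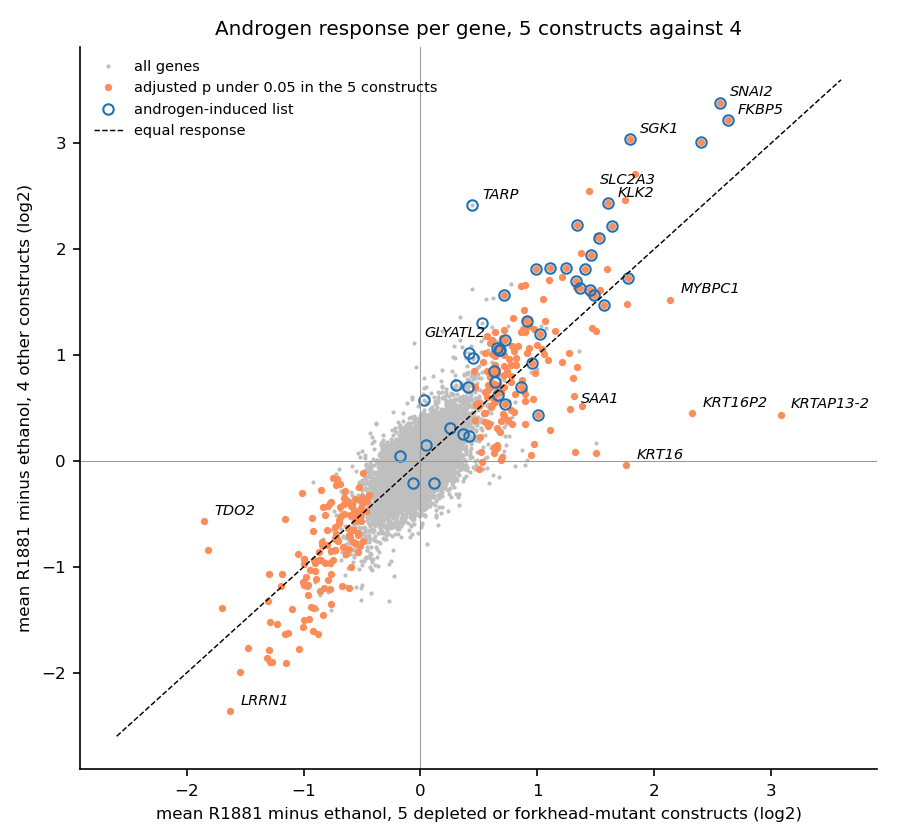
Mean R1881 minus ethanol (log2) of each of 11590 genes in the 5 depleted or forkhead-mutant constructs (x axis) and in the 4 others (y axis), with genes called in the 5 in orange, the androgen-induced list ringed and the line of equal response dashed. Most ringed genes lie above the line, and KRTAP13-2, KRT16P2 and KRT16 lie far below it.

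With R1881, all 5 levels lay below all 4 others for 14 of the 47 androgen-induced genes (29.8%, against 7.77% of all genes), and with ethanol for 5 of the 47 (10.6%, against 5.19%). Among the 16 androgen-induced genes with no overlap, 11 were on average lower in the 5 constructs than in the 4 others with R1881. With ethanol 5 of these were lower as well, mostly by little. Their ethanol differences were -0.01 (STEAP4 and CENPN), -0.10 (KLK2 and MPHOSPH9) and -0.33 (KLK15). All 5 R1881 levels lay below all 4 others for 8 of the 16, and all ethanol levels for 0, a split that choosing the 16 by their response favours. KLK2, the leukaemia inhibitory factor receptor LIFR, the elongation-factor partner EAF2, INPP4B (a phosphoinositide phosphatase), STEAP4 (a metalloreductase), CENPN, KLK15 and TARP were these 8. STEAP4 was detected on none of the 10 arrays of the 5 constructs and KLK15 on 1 of 5 under each treatment, so their values there are largely background. TARP, a T-cell receptor gamma reading frame transcribed in prostate cells, responded by 0.44 in the 5 constructs (1.01, 0.21, 1.27, -0.57 and 0.29 in GFP, D226N, M253K, FENG and F266S) and by 2.41 in the 4 others (1.96 to 3.06). The difference of -1.97 ± 0.35 did not pass (limma adjusted p = 0.119).

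For the other 5 of the 16, SGK1, SNAI2, PMEPA1, GNMT and SAT1, the mean in the 5 constructs was not lower under either treatment. With R1881 it was higher by 1.15 for SGK1 and 0.39 for SAT1. For GNMT, SNAI2 and PMEPA1 the R1881 means were nearly equal (0.03, 0.06 and 0.11 higher in the 5 constructs). SGK1 read 10.92, 9.95, 10.99, 10.79 and 10.21 with R1881 in GFP, D226N, M253K, FENG and F266S cells, against 9.29, 7.62, 9.60, 9.13 and 8.28 with ethanol. In the 4 others it read 8.76 to 9.74 with R1881 and 5.63 to 6.89 with ethanol, so both ranges lay below those of the 5 constructs. The response was 1.79 ± 0.14 in the 5 and 3.04 ± 0.10 in the 4 (SE), and the difference of -1.25 ± 0.19 missed the threshold (limma adjusted p = 0.0655). SNAI2 was undetected with ethanol on all 4 other arrays and detected on 4 of 5 in the depleted or forkhead-mutant cells, so its response in the 4 starts from background.

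Genes that rise with androgen outside this list included tubulins, a muscle protein and ion carriers. MYBPC1, a myosin-binding protein, rose by 2.13 ± 0.22, the chloride and bicarbonate exchanger SLC26A3 by 1.77 ± 0.18 and the tubulin TUBA3D by 1.75 ± 0.19, with 3.32 at another probe (SE, limma adjusted p from 0.00251 to 0.00279). Its near-identical relative TUBA3E was undetected on the 5 ethanol arrays and at least 2.80-fold higher with R1881 (limma adjusted p = 0.00101, mean 6.35 with R1881 and 4.51 with ethanol), and their probes may share RNA. Such a bound sets the R1881 mean against the lowest signal of a detected probe on each ethanol array, or the gene's own signal there where that was higher. SLC26A3 was detected on 1 of 5 ethanol arrays, so its response starts from near background. Its size ran from 0.71 to 1.87 over the alternatives run. Responses of 4 named genes spread widely over the constructs. MYBPC1 ranged from 1.37 (D226N) to 2.95 (GFP), NCAPD3 from 0.29 (M253K) to 2.23 (FENG) and TMEM100 from 0.68 (FENG) to 2.25 (GFP). NBL1, a BMP antagonist, ranged from -0.01 (GFP) to 1.99 (F266S). It was detected on 4 of 5 R1881 and 2 of 5 ethanol arrays, and lost its call without the M253K and FENG constructs.

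The strongest falls were of TDO2, which opens the tryptophan ring, and of KCNJ13, a potassium channel. TDO2 read 4.78, 4.81, 6.05, 5.26 and 4.63 with R1881 in GFP, D226N, M253K, FENG and F266S cells, against 6.55, 6.31, 8.15, 7.32 and 6.46 with ethanol. It was detected on 2 of 5 arrays with R1881 and on 5 of 5 with ethanol, and fell by 1.85 ± 0.12 (SE, limma adjusted p = 0.000451). In the 4 others TDO2 read 4.42 to 4.65 with R1881, detected on none, and 4.42 to 5.58 with ethanol. Its responses there (-0.93 to 0.01) all lay above those of the 5 constructs (-2.10 to -1.50), a difference of -1.28 ± 0.20 that missed the threshold (limma adjusted p = 0.0741). KCNJ13 fell by 1.82 ± 0.23 and the antisense transcript HOXA11-AS by 1.70 ± 0.11. The leucine-rich repeat gene LRRN1 changed by -1.63 ± 0.10 and the kappa opioid receptor OPRK1 by -1.54 ± 0.13, while both changed more in the 4 others (-2.36 ± 0.10 and -1.99 ± 0.09) with no overlap. Neither difference passed (limma adjusted p = 0.179 for LRRN1 and 0.932 for OPRK1). PLD1, a phospholipase, DAPK1, a death-associated kinase, the G-protein regulator RGS17, the ubiquitin ligase MID1, the scavenger receptor COLEC12, PCED1B and CCDC83 completed the 12 largest falls, at -1.29 to -1.48.

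Of 32 androgen-repressed genes 7 fell and 1 rose in the 5 constructs, where 1.16% of all genes fell and 1.44% rose. In the 4 others 16 fell and 3 rose, where 4.95% and 4.23% of all genes did. BCHE, butyrylcholinesterase, changed by -0.94 ± 0.15 and DDC, which makes dopamine and serotonin, by -0.89 ± 0.14 (limma adjusted p = 0.0169 and 0.0177). Both were lower with R1881 in 5 of 5 constructs, but both lost their call without the 2 deviating arrays. The member that rose was HES6 (1.50 ± 0.13), a HES family regulator. Without the M253K and FENG constructs 10 of the 32 fell and 2 rose, and without the 2 deviating arrays 7 fell and 1 rose. In the UGT2B and AKR1C families of steroid-handling enzymes 2 of 17 fell, AKR1C3 (-0.99 ± 0.13) and AKR1C2 (-0.52 ± 0.10), whose probes may share RNA. AKR1C2 lost its call without the 2 deviating arrays, where 1 of the 17 fell. UGT2B15, which glucuronidates androgens, did not pass (-0.27 ± 0.76, limma adjusted p = 0.958). Its responses were -1.92, -0.63, 3.78, -2.29 and -0.30 in GFP, D226N, M253K, FENG and F266S cells. The positive M253K value rests on the deviating ethanol array, which read 7.14, against 8.87 to 11.56 with ethanol in the other 4. With R1881 M253K and F266S both read 10.91. Over the alternatives run the UGT2B15 response ran from -1.28 to 0.23, and 1 alternative called it (limma adjusted p = 0.04).

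**Figure D5:**
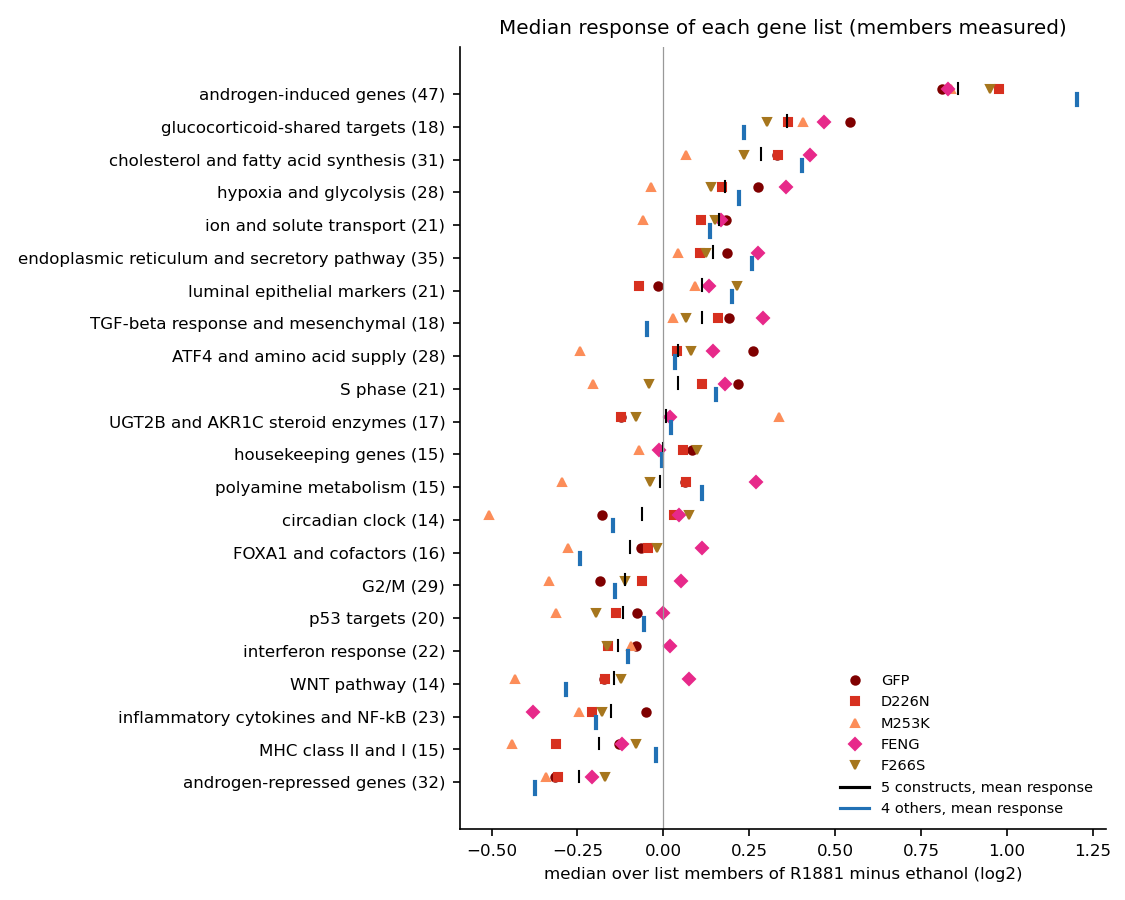
Median over list members of the R1881 minus ethanol response (log2) for each of the 22 gene lists with at least 10 measured members, the number measured in brackets. Symbols are the 5 constructs one by one, the black bar is the median of their mean response and the blue bar that of the 4 others; the androgen-induced list (0.86 in the 5, 1.20 in the 4) stands apart from the rest.

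Lipid, glucose and secretory genes moved less. For scale, 1.44% of all genes rose and 1.16% fell in the 5 constructs, and 4.23% and 4.95% in the 4 others. Cholesterol and fatty acid synthesis had 3 of 31 members higher and 0 lower, namely the desaturase FADS1 (0.88 ± 0.14), the elongase ELOVL5 (0.65 ± 0.10) and the sterol sensor SCAP (0.47 ± 0.09), with a median of 0.28 in the 5 constructs and 0.40 in the 4 others. In the 4 others 16 rose and 1 fell. Without the M253K and FENG constructs 6 rose, and 10 rose and 1 fell without the 2 deviating arrays. Hypoxia and glycolysis genes rose in 2 of 28 (8 in the 4 others), NDRG1 and the glucose transporter SLC2A3, and 1 fell, the vasodilator peptide ADM (-0.49 ± 0.10). SLC2A3 was undetected on all 9 ethanol arrays of the series. With R1881 it was at least 1.73-fold higher in the 5 constructs (limma adjusted p = 0.00139, mean 5.66 with R1881 and 4.21 with ethanol). SLC2A3 levels with R1881 were 5.29 to 6.03 in the 5 and 6.52 to 7.23 in the 4 others, with a difference in response that missed the threshold (limma adjusted p = 0.0885) and passed without the 2 deviating arrays and with construct as a random block (0.026). ANKRD37, a hypoxia-inducible ankyrin gene, responded by 0.44 ± 0.14 in the 5 and by 1.62 ± 0.09 in the 4 (SE), with responses of -0.07 to 0.83 against 1.40 to 1.72 and a difference of -1.18 ± 0.18 (limma adjusted p = 0.0635). VEGFA, the angiogenic factor, did not pass in the 5 (0.29) and responded by 1.09 in the 4. Endoplasmic reticulum and secretory genes were positive in 33 of 35, where 5297 of all 11590 genes were. Only 1 of the 35 passed, the transcription factor CREB3L4 (0.96 ± 0.10), and 11 rose in the 4 others.

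Of 23 inflammatory genes 2 rose and 4 fell, against 1.44% and 1.16% of all genes. Without the 2 deviating arrays 1 rose and 3 fell. The chemokine CCL2 (-0.73 ± 0.10), the interleukin-1 receptor antagonist IL1RN (-1.27 ± 0.13), NFKB1 (-0.73) and the chemokine CCL8 (-0.65) fell, while the acute-phase proteins SAA1 and SAA2 rose. SAA1 read 9.02, 7.06, 9.68, 9.03 and 7.83 with R1881 in GFP, D226N, M253K, FENG and F266S cells, against 7.16, 6.05, 8.68, 7.79 and 6.52 with ethanol. Each construct rose, by 1.00 to 1.87 (mean 1.28 ± 0.14 SE, limma adjusted p = 0.00338), and responses in the 4 others were 0.22 to 0.89. SAA2 rose by 0.94 ± 0.15 (limma adjusted p = 0.0194). It was detected on 1 of 5 ethanol arrays of the 5 constructs and undetected on the 8 arrays of the 4 others. SAA4, from the same family, rose by 0.70 ± 0.12 (limma adjusted p = 0.0245) and was chosen after its values were seen. It too was undetected on those 8 arrays. All 3 had 5 responses above all 4 others, against 0.889% of all genes, but for SAA2 and SAA4 the responses in the 4 are background. None passed the test of the difference (limma adjusted p = 0.502, 0.372 and 0.472). SAA1 and SAA2 are near-identical, so their probes may share RNA. The calprotectin subunit S100A8 was also chosen after its values were seen. It rose by 1.38 ± 0.12 in the 5 constructs (limma adjusted p = 0.00138) and responded by 0.52 ± 0.16 in the 4 others. The difference of 0.86 ± 0.21 did not pass (limma adjusted p = 0.472). S100A8 was detected on 1 of 4 ethanol arrays of the 4 others, so its response there starts from near background. It was the 1 of 11 S100 genes that rose (family median 0.04), and its partner S100A9 did not pass (0.54, limma adjusted p = 0.176).

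The largest positive differences from the 4 other constructs were in keratin and keratin-associated genes. They were mostly undetected there, and so passed the detection filter mainly through the 5 constructs. KRTAP13-2, a keratin-associated protein of the hair shaft, read 8.56, 6.25, 7.96, 7.31 and 6.73 with R1881 in GFP, D226N, M253K, FENG and F266S cells, against 4.42, 4.18, 4.34, 4.22 and 4.23 with ethanol. It was detected on 5 of 5 R1881 arrays and 0 of 5 ethanol arrays, and was at least 5.63-fold higher with R1881 (limma adjusted p = 0.00155, mean 7.36 with R1881 and 4.28 with ethanol). In the 4 others it read 4.30 to 5.14 with R1881, detected only with L388M (5.14), and 4.20 to 4.25 with ethanol. The responses did not overlap, at 2.07 to 4.13 in the 5 and 0.10 to 0.89 in the 4, and the fitted difference of 2.64 ± 0.37 passed (limma adjusted p = 0.0405). With no ethanol array above background, its size depends on the background model and is no measured fold: it was 1.32 with no background correction (adjusted p = 0.184).

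KRT16, an inducible keratin of stressed and wounded epithelium, read 8.51, 5.40, 7.12, 6.79 and 6.53 with R1881 in GFP, D226N, M253K, FENG and F266S cells, against 6.41, 4.32, 5.08, 4.63 and 5.09 with ethanol. It rose by 1.76 ± 0.17 (SE, limma adjusted p = 0.00221) and was undetected on the 8 arrays of the 4 others, whose responses were -0.26 to 0.47. The fitted difference was 1.80 ± 0.25 (limma adjusted p = 0.0405), and 0.91 with no background correction (adjusted p = 0.224). The probe assigned to its pseudogene KRT16P2 may read KRT16 RNA. Its responses were 2.11 to 2.64 in the 5 and 0.08 to 1.15 in the 4 others. The difference was 1.87 ± 0.22 (limma adjusted p = 0.0272). In the 4 others this probe was detected on 1 of 4 R1881 arrays and 0 of 4 ethanol arrays, so its values there are largely background. Another KRT16P2 probe, detected on 2 of the 10 arrays, gave a response of 0.70 in the 5 constructs, against 2.33 here. KRTAP13-1 was undetected on all 9 ethanol arrays and at least 1.93-fold higher with R1881 in the 5 constructs (limma adjusted p = 0.0376, detected on 4 of 5), and KRT6C responded by 1.50 ± 0.35 without passing (limma adjusted p = 0.0736). Of 20 keratin and keratin-associated genes measured, a family chosen after its values were seen, these 4 rose (KRT16, KRT16P2, KRTAP13-1 and KRTAP13-2) and 0 fell. Over all genes 1.44% rose and 1.16% fell. In the 4 others 3 of the 20 rose (KRT8, KRT18 and KRT19) and 1 fell (KRT20), where 4.23% and 4.95% of all genes did. The median response of the 20 was 0.05 in the 5 constructs and 0.04 in the 4 others. The luminal keratins KRT8 and KRT18 did not pass in the 5 constructs. Their responses went opposite ways in the deviating constructs (KRT18 3.53 in M253K and -2.13 in FENG, KRT8 -0.42 and 1.58). The basal keratins KRT5, KRT14 and KRT17 had no kept probe. The linear signal of the basal marker with a kept probe, KRT15, was 23.8 to 43.8 with R1881 and 23.4 to 65.3 with ethanol, and its part in the result was not tested.

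KRTAP13-2 and KRTAP13-1 lie on chromosome 21, and the 250 bases before each start are shown because both were induced from background. They come from RefSeq (GRCh38.p14), 5′ to 3′ on the gene's strand, and would carry capitals at the same motifs as above.
KRTAP13-2 (chr21:30372272-30372521, minus strand): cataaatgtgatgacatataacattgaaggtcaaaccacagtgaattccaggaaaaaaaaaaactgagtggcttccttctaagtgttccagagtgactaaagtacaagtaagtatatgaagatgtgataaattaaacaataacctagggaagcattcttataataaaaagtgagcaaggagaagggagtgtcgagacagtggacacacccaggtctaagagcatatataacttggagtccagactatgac
KRTAP13-1 (chr21:30395781-30396030, plus strand): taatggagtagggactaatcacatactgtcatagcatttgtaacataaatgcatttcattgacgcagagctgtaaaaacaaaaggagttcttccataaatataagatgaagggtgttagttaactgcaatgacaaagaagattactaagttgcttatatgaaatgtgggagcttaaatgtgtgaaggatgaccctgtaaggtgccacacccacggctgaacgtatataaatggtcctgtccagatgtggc
Neither window held the receptor motif or the forkhead core in these letters, and the longest run they share is 8 bases. No match says only that these letters are absent from these windows.

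In the test of the difference over all genes 4 were called (0.0345%), 559 had an unadjusted p under 0.05, and the fourth gene went the other way. GLYATL2, a glycine acyltransferase, read 8.65, 7.71, 8.56, 8.38 and 7.94 with R1881 in GFP, D226N, M253K, FENG and F266S cells, against 8.70, 7.75, 8.48, 8.39 and 8.20 with ethanol. It did not pass in the 5 constructs (-0.06 ± 0.10, limma adjusted p = 0.916) and rose by 1.11 ± 0.13 (SE) in the 4 others, which read 7.57 to 7.98 with R1881 and 6.57 to 6.90 with ethanol. The difference was -1.17 ± 0.16 (limma adjusted p = 0.0405). No gene was called without M253K, FENG and G87R (752 had an unadjusted p under 0.05), and the differences there were 2.46 for KRTAP13-2, 1.51 for KRT16, 1.99 for KRT16P2 and -1.25 for GLYATL2 (limma adjusted p from 0.114 to 0.244). Without the 2 deviating arrays and with construct as a random block, KRTAP13-2 alone of the 4 passed (2.63, limma adjusted p = 0.0338), beside OTULINL, SASH1 and SLC2A3. The deposited processed values called none of the 4.

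Among the largest differences that did not pass, SCNN1G, the gamma subunit of the epithelial sodium channel, responded by 1.32 ± 0.19 in the 5 constructs and by 0.09 ± 0.11 in the 4 others (difference 1.23 ± 0.26, limma adjusted p = 0.303). TM4SF1, a tetraspanin-like surface protein, responded by 0.18 ± 0.14 in the 5 and 1.23 ± 0.09 in the 4 (difference -1.04 ± 0.18, limma adjusted p = 0.119), and OTULINL by 0.34 ± 0.16 and 1.36 ± 0.09 (difference -1.01 ± 0.20, limma adjusted p = 0.237). KRTAP13-1, KRT6C, CAMP, an antimicrobial peptide, PNLIPRP3, a lipase relative, and SAA2 had differences of 0.89 to 1.43 (limma adjusted p from 0.372 to 0.932). These genes were undetected on every array of the 4 others. In the 5 constructs each was detected on at most 1 of 5 ethanol arrays, and CAMP and PNLIPRP3 on only 3 of 5 R1881 arrays. Their differences are therefore set against background and are no measured folds. For TRIM49D2 the difference was -0.97 ± 0.51, with overlapping responses.

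Other programmes showed few or no calls. Over all genes 1.44% rose and 1.16% fell, so no call or 1 call in a list of this size lies near that share. Such a count is not read as a result about the members. None of 21 S phase, 29 G2/M, 15 MHC, 14 circadian, 15 housekeeping and 4 basal genes passed in the 5 constructs (limma adjusted p under 0.05). Ion and solute transport had 3 of 21 higher and 1 lower, with the potassium channel KCNMA1 (0.93 ± 0.15) and the amino acid carrier SLC43A1 (0.90 ± 0.13) next to SLC26A3, and the cotransporter SLC12A2 lower (-0.58 ± 0.11). TGF-beta and mesenchymal genes rose in 4 of 18, SNAI2, PMEPA1, the matricellular gene CCN1 (0.63 ± 0.13) and ID2 (0.58), and ID3, an inhibitor of helix-loop-helix factors, fell (-0.75 ± 0.13). The p53 targets TP53INP1 (-0.96 ± 0.13) and SESN1 (-0.56 ± 0.09) fell, 2 of 20, and LEF1 (-0.93 ± 0.13), the nuclear effector of WNT signalling, was the 1 of 14 WNT genes that fell. Of 22 interferon genes CXCL10 (0.77 ± 0.15) rose and IRF1 (-0.69 ± 0.13) fell, and CXCL10 lost its call without the M253K and FENG constructs. In amino acid supply the carrier SLC7A5 fell (-0.56 ± 0.11), 1 of 28, and in polyamine metabolism ODC1 alone rose, 1 of 15. Of 21 luminal genes 5 rose and 0 fell, the androgen targets KLK2, KLK3, SPDEF, SLC45A3 and TMPRSS2. Of 16 genes for FOXA1 and cofactors SPDEF alone rose, and FOXA1 itself did not pass (-0.09 ± 0.09, limma adjusted p = 0.856). The collagen COL3A1 (-0.73 ± 0.15), among 4 endothelial and fibroblast markers, and DDC, among 3 neuroendocrine and neuronal ones, fell, and 0 of 3 leukocyte markers passed. The part of these markers in the results above was not tested.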

How the data were processed

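Total RNA of 18 LNCaP samples was read on Illumina HT-12 V4 arrays. The raw intensity of each probe, with no background subtracted, and its detection p-value are as deposited by the authors, who used GenomeStudio per the submitters' processing notes (version not given in the sources used here). A second deposited table holds intensities already background subtracted and scaled to one distribution on every array, as seen from its values, and served as an alternative. No slide or scan date was used.

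From the raw intensities, limma 3.58.1 in R 4.3.3 fitted a normexp background from the detection p-values, added an offset of 16, applied quantile normalisation over the 18 arrays and took log2 (neqc). Of 47303 probes, 20117 with a detection p under 0.01 on at least 2 arrays were kept. The platform annotation gave 30102 probes 1 gene, 8 several and 17193 none. Symbols were updated through gene IDs to GRCh38.p14, which 99.87% matched, and the brightest named probe represented a gene, leaving 11590 genes.

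R1881 was compared with ethanol by lmFit and eBayes with construct as a block, since both arrays of a construct come from the same cell line. The response of the 5 constructs was compared with that of the 4 others by limma on the 9 within-construct differences. P-values were Benjamini-Hochberg adjusted over all 11590 genes, with 0.05 as the threshold. The code was tested on simulated data.

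The text names the 12 largest rises and falls, up to 4 called members of each of 26 gene lists, a fixed set of androgen-response genes, the largest differences between the construct classes, and the genes of widest spread. The constructs, lists and rules were chosen with earlier results of these data known. Alternatives covered scaling, background, offset, the deposited processed values, detection filters, probe choice, the variance model, the block, and leaving out constructs or arrays. With 1 array per condition, the number of arrays limits the precision.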

Additional observations from a re-analysis of the deposited data

Results flagged for a closer look

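The test of the difference itself called 4 genes. Of these, KRT16, KRT16P2 and KRTAP13-2 were mostly undetected in the 4 others and passed the detection filter mainly through the 5 constructs. The fitted response of the 5 depleted or forkhead-mutant constructs minus that of the 4 others was 2.64 for KRTAP13-2, 1.87 for KRT16P2, 1.80 for KRT16 and -1.17 for GLYATL2 (log2, limma adjusted p from 0.0272 to 0.0405). KRT16 and GLYATL2 show 2 ways to differ: KRT16 was undetected on the 8 arrays of the 4 others, while GLYATL2 was detected throughout. KRTAP13-2 was detected on 0 of 9 ethanol arrays, so for it and for KRT16 the size of the difference depends on the background model. KRT16P2 was detected on 1 of 4 R1881 arrays and 0 of 4 ethanol arrays of the 4 others. Its difference ran from 1.23 to 2.39 over the alternatives run.

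In 4 of 67 named genes that were examined, 1 of the 5 constructs lay far from the rest (Dixon's 95% criterion, which chance meets in about 1 of 20 groups). The DDC response was -1.51 in GFP cells, against -0.87 to -0.66 in the other 4. NBL1 responded by -0.01 in GFP cells, which read 4.44 with R1881 and 4.45 with ethanol, and by 1.55 to 1.99 in the other 4. Low signal limits this value, since NBL1 was detected on 4 of 5 R1881 and 2 of 5 ethanol arrays. KCNMA1 responded by 0.29 in M253K cells and by 0.97 to 1.24 in the other 4. For FOXA1 itself the M253K response was -0.27, against -0.08 to -0.02 elsewhere.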

How the results depend on the processing

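No called result changed direction under the alternatives run. The 302 calls in the 5 constructs became 189 with median scaling, 590 without the M253K and FENG constructs, 662 without the 2 deviating arrays and with construct as a random block, 184 with no replicate block and 642 with the spread shared by 9 constructs. Leaving out 1 construct gave 73 (without F266S) to 615 (without M253K). The 4 calls of a difference between classes became 1 with detection on at least 9 arrays. Settings with 3 to 6 calls did not always call these genes: the deposited processed values called 0 of the 4, and no background correction or an offset of 50 called GLYATL2 and KRT16P2 but not KRT16 and KRTAP13-2. They became 0 with no detection filter, with the mean of a gene's probes, without the deviating constructs and with hairpin constructs only (limma, 1029, 551, 752 and 410 genes at an unadjusted p under 0.05). Leaving out 1 construct gave 0 (without GFP, FENG, F266S, control vector, wild type or G87R) to 8 (without M253K). The 1064 calls in the 4 others became 507 with the deposited processed values and 562 to 783 with 1 construct left out. Of 66 named genes called in the 5, 27 were called under every alternative run, 62 without the M253K and FENG constructs, and 43 with the processed values. Without the 2 deviating arrays and with a random block 56 were called. ADM, AKR1C2, BCHE, CCL2, CCN1, DDC, IRF1, NBL1, SAA1 and SLC12A2 lost their call there (limma adjusted p = 0.0572 for SAA1). Without the block KLK3, KRT16P2, SLC45A3, KRT16 and SAA1 missed the threshold (limma adjusted p = 0.0558, 0.0558, 0.0529, 0.146 and 0.412), and TMPRSS2 and KRT16 missed it with the processed values (0.0657 and 0.073). The cause was not tested. Median scaling moved the median difference of all genes to 0.06. Low signal limits KRT16, KRT16P2, KRTAP13-2 and TDO2, which were undetected on part of the arrays.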
